A study of Danio rerio with 3 samples.

Results

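MN1, MN2 and MN3 are 3 of the motor neuron classes that the authors named in cells sorted for green fluorescence from zebrafish embryos. Their cells were taken by these names from the annotation of the table that joins the 3 libraries (the integrated table). They numbered 704 of 6264 cells, 284 in MN1, 328 in MN2 and 92 in MN3. Each class was exactly 1 cluster of that table, so whatever set the clusters apart is no finding here. The embryos were of the line Tg(olig2:EGFP), described as wild type and given no treatment, and were staged at 24, 36 and 48 hours after fertilisation (hpf). Each stage gave 1 library, from whole deyolked embryos that were dissociated before the sort and are labelled as spinal cord cells. EGFP, a green fluorescent protein, is driven in this line by regulatory DNA of olig2, so the shares below are shares of sorted cells and not of the spinal cord. All 3 groups carry the transgene. The number of embryos behind a library is not stated in the labels.

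Motor neurons of the trunk arise from the pMN domain, a zone of ventral spinal cord progenitors that express olig2, and leave the cell cycle as they form. In zebrafish the first to form are the large primary motor neurons, which send the first axons to the body muscle, and the smaller and more numerous secondary motor neurons follow. Motor neurons are usually recognised by mnx1, isl1 and isl2a, which encode transcription factors of motor neuron identity, and, as neurons, by elavl4, which encodes an RNA-binding protein. The tables used here give values per cell and none per gene, so the names MN1 to MN3 could not be checked against these 4 markers or against markers of other cell types. Nothing here says which kind of motor neuron a subclass holds.

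The libraries held 1826 cells at 24 hpf, 2044 at 36 hpf and 2394 at 48 hpf. Median UMIs per cell (unique molecular identifiers, which tag each captured RNA molecule) were 8935.5, 4569 and 5774.5 at these stages, so that each stage also had its own depth. The 48 hpf library stood apart in its cell barcodes, where the first 7 bases were absent from both other libraries in 87.0% of cells, while this held for 2.45% at 36 hpf and 0.876% at 24 hpf. Among the MN1 to MN3 cells the same share was 84.9% at 48 hpf (310 of 365 cells), 3.86% at 36 hpf and 1.89% at 24 hpf. Differences between 48 hpf and an earlier stage cannot be told apart from this difference between barcode sets. Across libraries 7 whole barcodes occurred more than once, and 1 of them belonged to an MN1 cell of 24 hpf. With 1 library per stage no value has a replicate, no test between stages was possible, and all intervals below cover counting error only.

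All 3 subclasses made up a larger part of the 48 hpf library than of the 24 hpf library, MN2 by less than 2-fold. The MN2 shares at 36 and 48 hpf were alike. Values in brackets are cell numbers and exact 95% binomial (Clopper-Pearson) intervals. MN1 supplied 2.35% of the 24 hpf library (43 cells, 1.71 to 3.16), 4.01% of the 36 hpf library (82 cells, 3.20 to 4.96) and 6.64% of the 48 hpf library (159 cells, 5.68 to 7.71). MN2 cells were 3.23% (59 cells, 2.47 to 4.15), 6.12% (125 cells, 5.12 to 7.24) and 6.02% (144 cells, 5.10 to 7.04) at these stages. MN3 cells were 0.219% (4 cells, 0.0597 to 0.560), 1.27% (26 cells, 0.833 to 1.86) and 2.59% (62 cells, 1.99 to 3.31). MN3 was the smallest subclass at each stage. The intervals of the 3 stages did not overlap in MN3, nor did they in MN1, and the MN2 interval at 24 hpf lay below both later ones. The MN2 intervals at 36 and 48 hpf lay almost on top of each other.

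**Figure D1:**
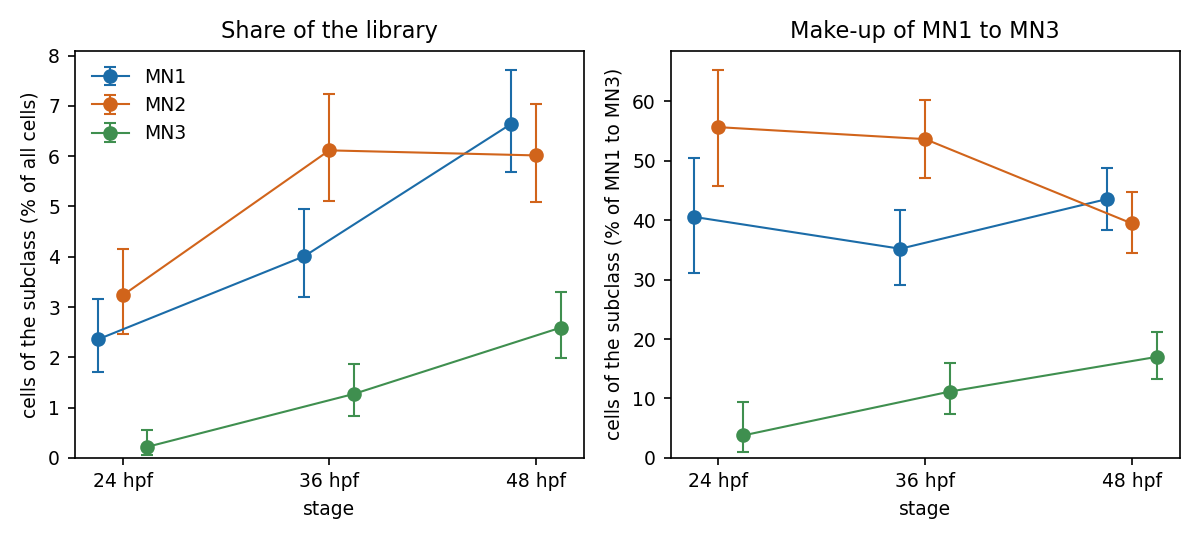
Share of each subclass in its library (left, percent of all cells) and in the MN1 to MN3 cells (right, percent) at 24, 36 and 48 hpf, with exact 95% binomial intervals and 1 library per stage. MN3 runs from 0.219% to 2.59% of the library, and MN2 is the largest subclass at 24 and 36 hpf but not at 48 hpf in all cells, an order that turns at 24 and 48 hpf among cells with at most 3% mitochondrial reads.

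A class was called where its shares at 2 stages differed at least 2-fold and their intervals lay apart. At 48 hpf over 24 hpf, 39.3% of the 28 classes of the integrated table were called higher by this rule, and MN1 and MN3 were among them while MN2 was not. The ratio was 2.82 for MN1 (exact conditional 95% interval 2.003 to 4.05), 1.86 for MN2 (1.37 to 2.57) and 11.8 for MN3 (4.39 to 44.8). With stage-table names the MN1 call was lost (log2 ratio 0.90, in place of 1.50), but that name does not cover the same cells. By the integrated names its cells were 47.2% MN2 at 24 hpf and 47.7% MN4 at 48 hpf. In cells matched on depth the MN3 call was lost (2.09, in place of 3.56). Among cells with at most 3% mitochondrial reads MN2 was called as well (1.50, in place of 0.90), as it was among cells with at least 2000 UMIs (1.06), whereas in cells matched on depth its direction turned (-0.29). That turn rests on few cells, as MN2 held 38 matched cells at 24 hpf and 31 at both 36 and 48 hpf, of 875 each. Matching kept 38 of the 59 MN2 cells of 24 hpf, but 16 of the 43 MN1 cells. At 36 hpf over 24 hpf, 25% of the classes were called higher, of these subclasses MN3 alone, with a 5.81-fold higher share (2.01 to 22.9) that rests on 4 cells at 24 hpf. The ratio was 1.70 for MN1 (1.16 to 2.52) and 1.89 for MN2 (1.38 to 2.63). MN2 became a call among cells with at most 3% mitochondrial reads (log2 ratio 1.55, in place of 0.92) and with at least 2000 UMIs (1.07), and turned in cells matched on depth (-0.29). At 48 hpf over 36 hpf, 28.6% of the classes were called higher, again of these subclasses MN3 alone, with a 2.04-fold higher share (1.27 to 3.35). The ratio was 1.66 for MN1 (1.26 to 2.19) and 0.984 for MN2 (0.769 to 1.26). Both MN3 calls were lost in cells matched on depth, with log2 ratios of 0.32, in place of 2.54, and 1.77, in place of 1.03. The second ratio was thus larger in matched cells, where MN3 held only 5 cells at 36 hpf and 17 at 48 hpf. Its call was also lost among cells with at most 3% mitochondrial reads (0.97). The calls of the subclasses stand beside these shares of all classes, and nothing particular to motor neurons is read from them.

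Taken as a whole, MN1 to MN3 supplied 5.81% of the 24 hpf library (106 cells, 4.78 to 6.98), 11.4% of the 36 hpf library (233 cells, 10.1 to 12.9) and 15.2% of the 48 hpf library (365 cells, 13.8 to 16.7). The ratio of 48 hpf over 24 hpf was 2.63 (2.11 to 3.29) and was called. In cells matched between libraries on UMI depth this log2 ratio was 0.80, in place of 1.39, and was no longer called. At 36 over 24 hpf, not called in all cells either, the log2 ratio was 0.14 in matched cells, in place of 0.97. MN1 to MN3 there held 58 cells at 24 hpf and 64 at 36 hpf, of 875 each. Within the motor neuron classes the order of the stages was the other way round. Of all cells named MN1 to MN5, these 3 subclasses were 74.6% at 24 hpf (106 of 142 cells, 66.7 to 81.6), 65.1% at 36 hpf (233 of 358, 59.9 to 70.0) and 44.9% at 48 hpf (365 of 813, 41.4 to 48.4), the rest being MN4 and MN5. As shares of Pre-MN and MN1 to MN5 cells, the log2 ratio of 48 over 24 hpf was -0.50 for MN1, -1.10 for MN2 and 1.57 for MN3, so that the direction turned for MN1 and MN2 and the MN3 call was lost. The MN2 share of these cells was thus more than 2-fold lower at 48 hpf than at 24 hpf. At 48 over 36 hpf its log2 ratio was -0.85, in place of -0.024 as a share of the library.

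The make-up of the 3 subclasses also differed between stages. MN2 was the largest at 24 hpf with 55.7% of the 106 cells (45.7 to 65.3) and at 36 hpf with 53.6% of the 233 cells (47.0 to 60.2), and was 39.5% of the 365 cells at 48 hpf (34.4 to 44.7). The shares of MN1 at 24, 36 and 48 hpf were 40.6% (31.1 to 50.5), 35.2% (29.1 to 41.7) and 43.6% (38.4 to 48.8), with overlapping intervals. MN3 was 3.77% (1.04 to 9.38), 11.2% (7.42 to 15.9) and 17.0% (13.3 to 21.2). For each MN2 cell there were 0.729, 0.656 and 1.10 MN1 cells at these stages. The order of MN1 and MN2 depended on the cells used and on the annotation. Among cells with at most 3% mitochondrial reads, MN1 was 53.8% and MN2 43.8% of the 24 hpf cells (43 and 35 cells), and MN1 was 39.9% and MN2 41.4% of the 48 hpf cells (105 and 109 cells). The order of MN1 and MN2 thus turned at both stages. With stage-table names, which do not cover the same cells, it turned at 36 hpf as well, with 176 MN1 and 164 MN2 cells. At 24 hpf no cell was named MN2 in the stage table, so that those names give no order there.

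UMIs per cell did not rank the subclasses the same way in each library. MN1 cells had a median of 10000 UMIs at 24 hpf (quartiles 9147.5 and 11827, n = 43 cells), 3730.5 at 36 hpf (3389 and 4245, n = 82) and 5299 at 48 hpf (4095.5 and 7957, n = 159). MN2 cells had 5771 (2885 and 10934, n = 59), 4315 (3544 and 4807, n = 125) and 4272 (3750.5 and 5242, n = 144). MN3 cells had 4026.5 at 36 hpf (3556 and 4283, n = 26) and 4498.5 at 48 hpf (3917 and 5019.5, n = 62). The 4 MN3 cells of 24 hpf had 1724, 4084, 4469 and 5850 UMIs. MN1 thus had a higher median than MN2 at 24 hpf, the lowest of the 3 at 36 hpf and the highest at 48 hpf.

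Set against its own library, MN1 lay above the library median of UMIs at 24 hpf, with a ratio of 1.12, and below it at 36 hpf (0.816) and 48 hpf (0.918). For MN2 the ratios were 0.646, 0.944 and 0.740, and for MN3 they were 0.881 at 36 hpf and 0.779 at 48 hpf. Of the MN1 cells 76.7% were above the library median at 24 hpf (33 of 43, 61.4 to 88.2), 18.3% at 36 hpf (15 of 82, 10.6 to 28.4) and 44.0% at 48 hpf (70 of 159, 36.2 to 52.1). At 48 hpf the MN1 cells also reached farthest up, to 22025 UMIs, against 14152 in MN2 and 8751 in MN3. Only 6.45% of the MN3 cells (4 of 62, 1.79 to 15.7) were above the library median there, and 18.1% of the MN2 cells (26 of 144, 12.1 to 25.3).

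**Figure D2:**
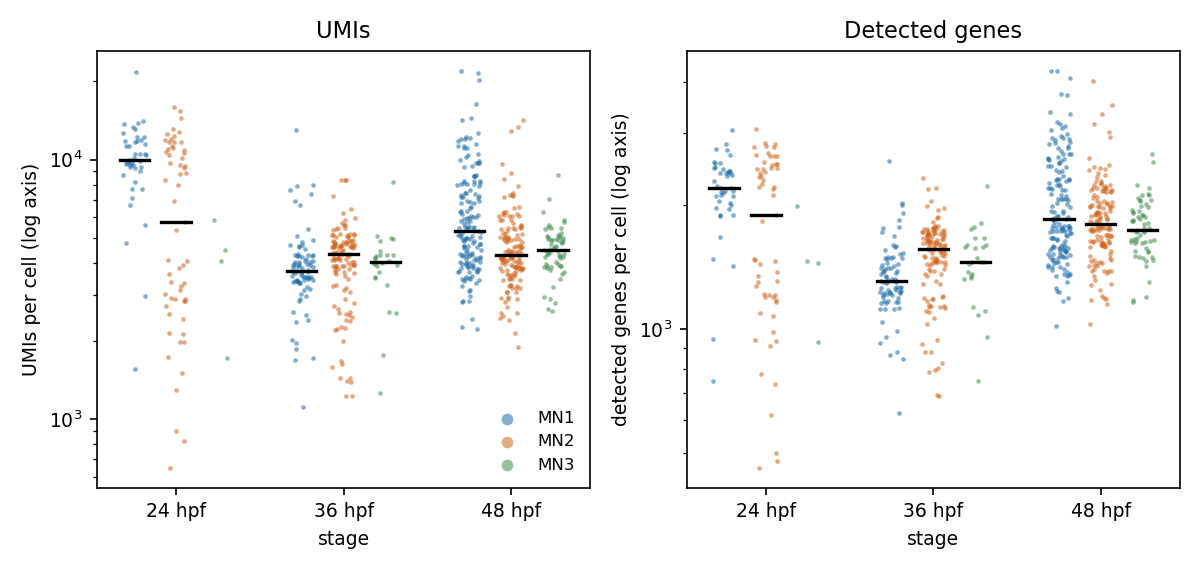
UMIs (left) and detected genes (right) per cell on log axes, by subclass and stage, with each point a cell of the single library of its stage and each bar the median where there were at least 10 cells. The MN2 cells of 24 hpf are spread from 648 to 15950 UMIs, and the MN1 cells of 48 hpf reach 22025 UMIs.

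In all cells the order of the subclasses in detected genes differed between libraries, and at like depth it was the same at 36 and 48 hpf. In all cells the medians of MN1 were 2201, 1306 and 1852 genes at 24, 36 and 48 hpf, those of MN2 1895, 1569 and 1806, and those of MN3 1458.5 at 36 hpf and 1741.5 at 48 hpf. Among cells of 4000 to 6000 UMIs, MN1 had 1488 genes (23 cells), MN2 1656.5 (70 cells) and MN3 1596.5 (12 cells) at 36 hpf. At 48 hpf the same selection gave 1745 genes in MN1 (57 cells), 1916 in MN2 (68 cells) and 1839 in MN3 (41 cells). In both libraries MN2 therefore had the most and MN1 the fewest genes at this depth. MN1 minus MN2 was -168.5 genes at 36 hpf and -171 genes at 48 hpf. The upper quartile of MN1 was below the lower quartile of MN2 at 36 hpf (1547.5 against 1596) and above it at 48 hpf (1852 against 1790). At 24 hpf too few cells lay in this range for a median, and the UMIs within the range were not equal, with medians of 4290 in MN1 and 4658.5 in MN2 at 36 hpf and 4865 in MN1 and 4620.5 in MN2 at 48 hpf.

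At 24 hpf MN2 held many cells that were shallow and had a high mitochondrial share, which MN1 did not. In the 24 hpf library 40.7% of the MN2 cells had more than 3% mitochondrial reads (24 of 59, 28.1 to 54.3), against 4.01% of the cells outside the 3 subclasses (69 of 1720, 3.13 to 5.05). Of the 43 MN1 cells none was above 3%, which allows a share of up to 8.22%. Of the 4 MN3 cells 2 were above it, at 4.06% and 4.70%. MN2 thus supplied 25.3% of the library's 95 cells above 3% mitochondrial reads (16.9 to 35.2), although it was 3.23% of the library. Of the 44 Pre-MN cells of this library 18.2% were above 3% (8.19 to 32.7). So were 10.3% of the 29 MN5 cells (2.19 to 27.4) and 1 of the 7 MN4 cells.

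The MN2 cells above 3% had a median of 2793 UMIs (quartiles 1986.5 and 3199, n = 24 cells) and 1199 genes, against 10571 UMIs (8588 and 11791, n = 35) and 2456 genes in the MN2 cells at or below 3%. Their numbers of mitochondrial UMIs were alike, with medians of 108 (82 and 132) above 3% and 93 (69.5 and 123.5) at or below it. The 2 sets of MN2 cells thus differed in UMIs from other genes far more than in mitochondrial UMIs. Cells outside the 3 subclasses had the same pattern at lower values, with medians of 1578 UMIs and 57 mitochondrial UMIs above 3% (69 cells) and 9112 UMIs and 61 mitochondrial UMIs at or below it (1651 cells). The S and G2M scores of the integrated table were close in both sets of MN2 cells, with medians of -0.463 and -0.334 above 3% and -0.462 and -0.365 at or below it. In the stage table they were farther apart, with medians of -0.309 and -0.233 above 3% and -0.447 and -0.315 at or below it. Without the cells above 3%, the MN2 median of 10571 UMIs was above the MN1 median of 10000, where in all cells MN1 had the higher one (10000 against 5771).

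At 36 hpf fewer MN2 cells were above 3%, and at 48 hpf such cells were no longer shallow. At 36 hpf 9.60% of the MN2 cells were above 3% (12 of 125, 5.06 to 16.2), against 6.52% of the cells outside the 3 subclasses (5.42 to 7.75). Among the latter, the share was 18.8% in MN4 (10.9 to 29.0), 11.1% in MN5 (3.71 to 24.1) and 2.70% in Pre-MN (0.561 to 7.70). These 12 MN2 cells were again shallow, with a median of 1519 UMIs, against 4358 in the MN2 cells at or below 3%, and again near them in mitochondrial UMIs (57 against 64). At 48 hpf 24.3% of the MN2 cells were above 3% (35 of 144, 17.6 to 32.1), and so were 34.0% of the MN1 cells (54 of 159, 26.6 to 41.9), 21.0% of the MN3 cells (13 of 62, 11.7 to 33.2) and 19.1% of the cells outside the 3 subclasses (17.4 to 20.9). The share at 48 hpf was 38.6% in MN4 (32.0 to 45.5), 27.7% in MN5 (22.1 to 33.9) and 14.3% in Pre-MN (9.28 to 20.7). The MN2 cells above 3% at 48 hpf had a median of 4462 UMIs, against 4217 at or below it, and held more mitochondrial UMIs, 157 against 97. Cells outside the 3 subclasses had the same pattern. Their medians above 3% and at or below it were 1188 and 4827 UMIs at 36 hpf and 6065 and 6163 at 48 hpf. In mitochondrial UMIs these medians were 45.5 and 49 at 36 hpf and 213 and 126 at 48 hpf.

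**Figure D3:**
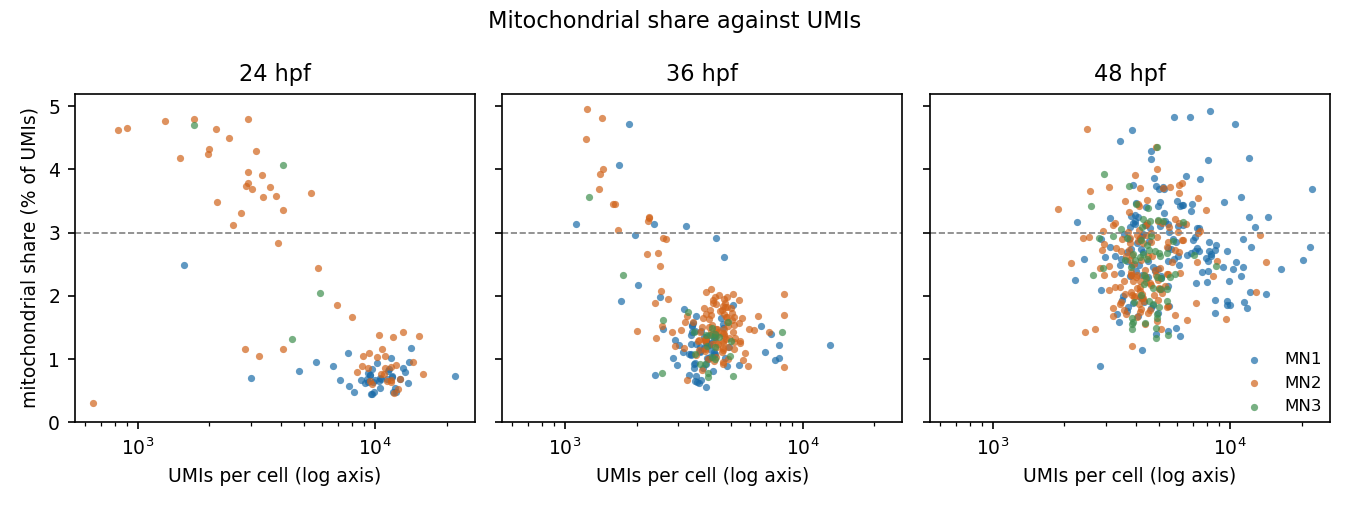
Mitochondrial share (percent of UMIs) against UMIs per cell (log axis) at 24, 36 and 48 hpf, with each point a cell and the dashed line at 3%. At 24 hpf 24 MN2 cells and 2 MN3 cells lie above the line and no MN1 cell does, whereas at 48 hpf 54 MN1, 35 MN2 and 13 MN3 cells do.

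Median mitochondrial shares of all cells were 0.702%, 1.23% and 2.71% in MN1, 1.38%, 1.52% and 2.51% in MN2 at 24, 36 and 48 hpf, and 1.32% and 2.57% in MN3 at 36 and 48 hpf. MN1 was lowest of the 3 at 36 hpf and highest at 48 hpf. All were above their library's median, by a ratio from 1.02 (MN1, 24 hpf) to 2.01 (MN2, 24 hpf). The library medians themselves differed between stages, at 0.686%, 1.06% and 2.35%, and the deposited cells end just below 5%.

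MN2 had the lowest median S and G2M scores at each stage in the integrated table, among 2 subclasses with enough cells at 24 hpf and all 3 later. The scores are given per cell and named for the phases of DNA synthesis (S) and of growth and division (G2M), they have no true zero, and their gene lists are not stated in the labels. The median S score was -0.382, -0.366 and -0.370 in MN1 at 24, 36 and 48 hpf, -0.462, -0.459 and -0.438 in MN2, and -0.393 and -0.398 in MN3 at 36 and 48 hpf. The median G2M score was -0.281, -0.288 and -0.291 in MN1, -0.359, -0.350 and -0.347 in MN2, and -0.308 and -0.301 in MN3. MN1 was above MN2 by 0.0808, 0.0933 and 0.0677 in the S score and by 0.0779, 0.0621 and 0.0558 in the G2M score at these stages. The SD between cells of a subclass ran from 0.0444 to 0.149 for the S score and from 0.0411 to 0.0594 for the G2M score, so that cells of the subclasses overlapped.

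The order held among cells of 4000 to 6000 UMIs, where the median S scores of MN1, MN2 and MN3 were -0.410, -0.472 and -0.413 at 36 hpf and -0.355, -0.455 and -0.397 at 48 hpf. The medians of a subclass differed little between stages in the integrated table. In the stage tables they did not stay level, since the median S score of MN1 was -0.408, -0.183 and -0.0412 at 24, 36 and 48 hpf and that of MN2 -0.413, -0.207 and -0.0515. For the same cells the stage tables thus hold other score values than the integrated table, and how either was scaled is not stated, so levels are not compared across the stage tables. MN2 was not lowest throughout in the stage tables. At 36 hpf the median S score there was -0.207 in MN2 and -0.211 in MN3, and at 24 hpf MN1 was above MN2 by 0.00452 in the S score, in place of 0.0808. At 48 hpf the order of the G2M medians turned, with -0.0878 in MN1, -0.0768 in MN2 and -0.0715 in MN3. With at most 3% mitochondrial reads, the stage-table S score of MN1 was above that of MN2 by 0.0385 at 24 hpf. MN2 stayed above MN3 by 0.00144 at 36 hpf in those cells. At 4000 to 6000 UMIs MN2 was below MN3 in that score at 36 hpf (-0.220 against -0.216). The order of the 48 hpf G2M medians stayed turned in both selections.

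**Figure D4:**
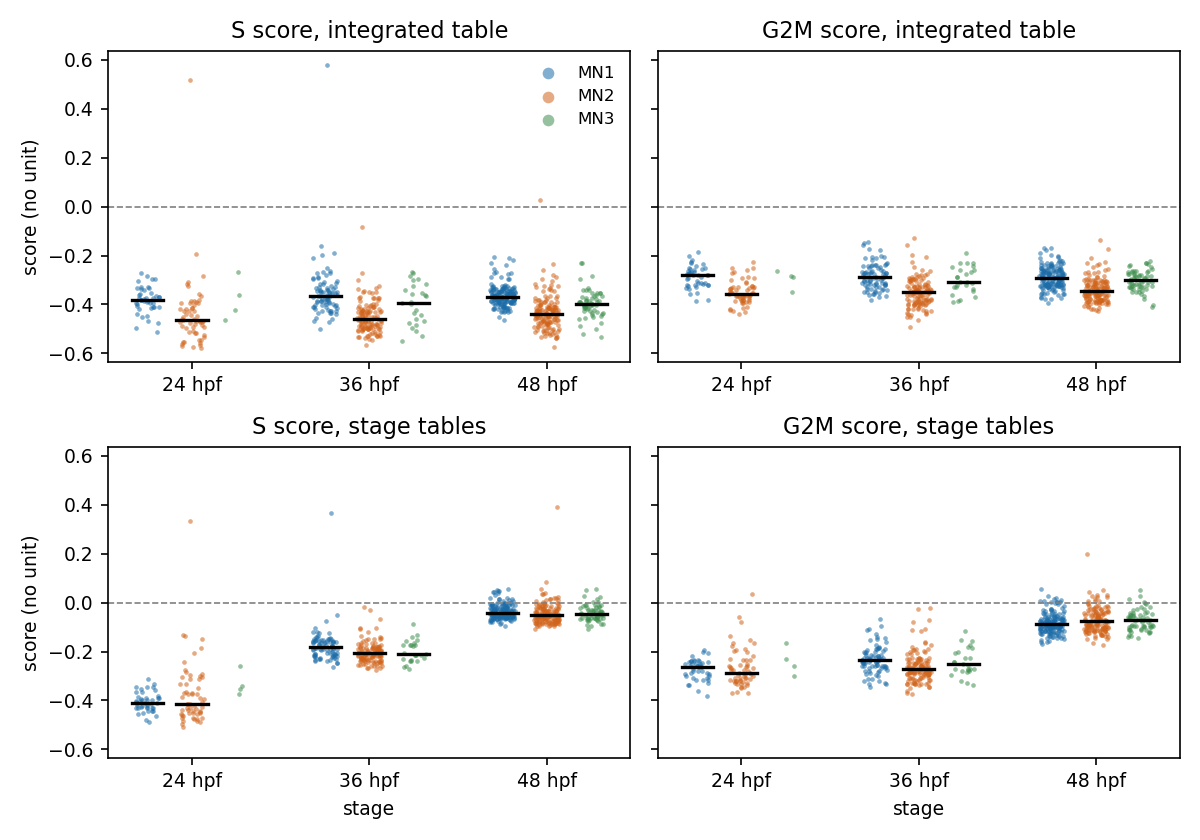
S scores (left) and G2M scores (right) per cell in the integrated table (top) and the stage tables (bottom), by subclass and stage, with each point a cell, bars at medians of at least 10 cells and the dashed line at 0. In the integrated table MN2 has the lowest median of both scores at each stage (S score -0.462, -0.459 and -0.438), and in the 48 hpf stage table many cells of all 3 subclasses lie close to 0.

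Nearly all MN1 to MN3 cells were called G1 in the integrated table, where a cell was called S or G2M if a score was above 0. Of 704 cells 3 were called S (0.426%, 0.0880 to 1.24) and none G2M. The share called over all cells of the libraries is not given here. Over all cells the upper quartile of the S score was 0.392, 0.00422 and -0.124 at 24, 36 and 48 hpf. That of the G2M score was 0.350, 0.0745 and -0.0641. None of the 92 MN3 cells was called S or G2M, which allows up to 3.93%. The 3 cells called S were 1 from each library, and their values are given after they were seen. An MN2 cell of 24 hpf had 7964 UMIs and an S score of 0.518, and was named MN1 in the stage table. An MN1 cell of 36 hpf had 13051 UMIs, the most of its subclass at that stage, and an S score of 0.580, and was named pMN2, by its name a progenitor class, in the stage table. An MN2 cell of 48 hpf had 14152 UMIs, again the most of its subclass, and an S score of 0.0283, and was named pMN1 in the stage table. All 3 were also called S there.

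By the stage tables the shares called S or G2M were 1.89% at 24 hpf (2 of 106 cells, 0.229 to 6.65), 0.429% at 36 hpf (1 of 233, 0.0109 to 2.37) and 15.9% at 48 hpf (58 of 365, 12.3 to 20.1). At 48 hpf the intervals of the 3 subclasses overlapped, with 15.7% in MN1 (25 of 159, 10.4 to 22.3), 15.3% in MN2 (22 of 144, 9.83 to 22.2) and 17.7% in MN3 (11 of 62, 9.20 to 29.5). Of these 58 cells 57 were called G1 in the integrated table, and in 57 the higher score of the stage table was at most 0.1, with a median of 0.0210. The called cells had a median of 4185.5 UMIs, against 4720 in the cells called G1. Over all cells of the 48 hpf library the upper quartile of the stage-table S score was 0.00248. It was -0.0174 in MN1, -0.0252 in MN2 and -0.0216 in MN3. The 15.9% is therefore not read as an excess over the library.

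The stage tables, which hold the same barcodes with a name given at each stage alone, split the motor neurons differently. At 24 hpf they had only 1 of the names MN1 to MN4, which was MN1 and took all 43 MN1 cells, 58 of the 59 MN2 cells and all 4 MN3 cells. At 36 hpf they had, of these names, MN1 and MN2. There 96.3% of the integrated MN1 cells were named MN1 (79 of 82, 89.7 to 99.2), 92.0% of the MN2 cells MN2 (115 of 125, 85.8 to 96.1), the other 10 of them MN1, and all 26 MN3 cells MN1 (86.8 to 100). At 48 hpf they had MN1 to MN4, and 64.2% of the integrated MN1 cells were named MN1 (102 of 159, 56.2 to 71.6) and 24.5% MN4 (39 cells, 18.1 to 32.0). A further 6.29% were named MN2 (10 cells) and 5.03% Pre-MN (8 cells). Of the integrated MN2 cells 86.1% were named MN2 at 48 hpf (124 of 144, 79.4 to 91.3) and 9.72% MN4 (14 cells). Of the integrated MN3 cells 96.8% were named MN2 there (60 of 62, 88.8 to 99.6) and the other 2 Pre-MN. The stage name MN4 was mostly not the integrated MN4. Its 303 cells were 73.6% integrated MN5 (223 cells, 68.3 to 78.5) and 6.27% integrated MN4 (19 cells, 3.82 to 9.62).

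When each stage was named alone, MN3 cells were thus grouped with MN1 at 36 hpf and with MN2 at 48 hpf. At 24 hpf the single name MN1 also took 58 of the 59 MN2 cells, so it does not set MN3 nearer to either. None of the 92 was named MN3, a name that was given at 48 hpf only. The 48 hpf stage table has a class MN3 of 45 cells, of which 43 were MN4 and 2 were MN2 in the integrated table. The number in a class name therefore does not mark the same cells in the 2 kinds of table. In all, 65.8% of the 704 cells had the same name in both (463 cells). By stage these were 40.6%, 83.3% and 61.9% of the cells at 24, 36 and 48 hpf. The stage names held no MN2 at 24 hpf and no MN3 at 24 and 36 hpf. Cells of those subclasses could not have the same name there, which lowers the 40.6%, the 83.3% and the 65.8%. A name from MN1 to MN4 in the stage table was held by 98.2% (691 cells).

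**Figure D5:**
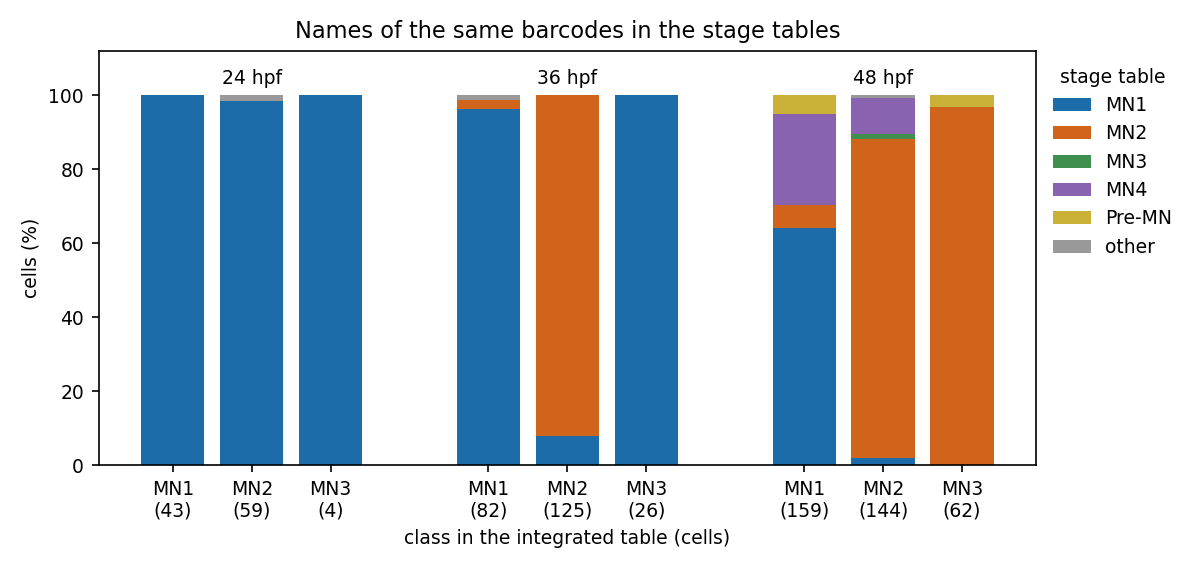
Names in the stage tables (colours, percent of cells) of the cells named MN1, MN2 and MN3 in the integrated table, by stage, with the number of cells under each bar. MN3 is wholly MN1 at 24 hpf, where MN1 is the only name given from MN1 to MN4, wholly MN1 at 36 hpf, and 96.8% MN2 at 48 hpf.

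Seen from the stage tables, the name MN1 covered more than the integrated MN1. At 24 hpf the 123 cells of that name were 47.2% integrated MN2 (38.1 to 56.4), 35.0% MN1 (26.6 to 44.1) and 8.94% Pre-MN. At 36 hpf the 176 cells were 44.9% MN1 (37.4 to 52.6), 18.8% MN4, 14.8% MN3, 11.9% Pre-MN and 5.68% MN2. At 48 hpf the 300 cells were 47.7% MN4 (41.9 to 53.5), 34.0% MN1 (28.7 to 39.7) and 9.33% Pre-MN. The name MN2 kept closer to the integrated MN2, with 70.1% of 164 cells at 36 hpf (62.5 to 77.0) and 63.3% of 196 cells at 48 hpf (56.1 to 70.0). MN4 supplied another 26.2% at 36 hpf (19.7 to 33.6), and MN3 another 30.6% at 48 hpf (24.2 to 37.6).

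The integrated MN1 cells of 48 hpf differed in depth by their stage name. The 102 that were MN1 in both tables had a median of 6327 UMIs (quartiles 4847 and 8721) and 2156 genes. The 39 named MN4 in the stage table had 3978 UMIs (3471.5 and 4516) and 1548 genes, and the 10 named MN2 had 3751 UMIs and 1541 genes. Among the integrated MN2 cells the 14 named MN4 were also shallower, with a median of 3655 UMIs against 4322.5 in the 124 named MN2.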

How the data were processed

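Cells were sorted for EGFP and profiled with the 10x Chromium 3′ system, per the labels' protocols, and the title marks the series as a reanalysis. The submitters' processing notes name Cell Ranger, Seurat and GRCz11, with no version or filter. The deposited UMIs and detected genes per cell are whole-number counts, the mitochondrial share is a deposited percent, and the S and G2M scores are deposited scores whose gene lists and scaling are not stated. Other deposited columns used are class names, phase calls and cluster numbers. Stages came from the labels. All 6264 cells matched between the integrated and the stage tables by 16-base barcode and stage, with equal UMIs. No label states a treatment of doublets, and without values per gene neither a doublet caller nor thinning could be run.

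Shares have exact (Clopper-Pearson) 95% intervals, ratios exact conditional ones, and a count of 0 was set to 3 cells for a ratio. Medians were given for at least 10 cells, and mitochondrial UMIs were computed as UMIs times percent. Other classes are named where they hold at least 5% of a subclass in the other annotation, or are MN4, MN5 or Pre-MN. Alternatives kept cells of at least 2000 UMIs, or cells below the deepest 5%, or cells with at most 3% mitochondrial reads, or matched cells on UMIs in 20 bins (875 cells per stage), or used other denominators or the names, scores and calls of the stage tables. The 3% and 5% limits are round values. The members and lists were chosen with earlier results of these data known. Intervals came from scipy 1.17.1, tables from pandas 2.3.3 and numpy 2.4.6 under Python 3.11.15, and plots from matplotlib 3.10.9.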

Additional observations from a re-analysis of the deposited data

Results flagged for a closer look

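The order of the subclasses in median UMIs, genes and mitochondrial share changed sign between libraries, except for MN2 and MN3 in genes. With 1 library per stage these changes of sign were not tested. MN1 minus MN2 in median UMIs was 4229 at 24 hpf, -584.5 at 36 hpf and 1027 at 48 hpf. In median genes it was 306, -263 and 46 at these stages, and in median mitochondrial percent it was -0.676, -0.294 and 0.197 percentage points. Without cells above 3% mitochondrial reads, MN1 minus MN2 at 24 hpf was -571 UMIs and -255 genes. MN1 minus MN3 was -296 UMIs at 36 hpf and 800.5 at 48 hpf, -152.5 and 110.5 genes, and -0.0887 and 0.139 percentage points of mitochondrial share. MN2 minus MN3 was 288.5 UMIs at 36 hpf and -226.5 at 48 hpf, and 0.206 and -0.0576 percentage points. In median genes MN2 minus MN3 kept its sign, at 110.5 and 64.5. At 24 hpf MN3 had too few cells for a median.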

How the results depend on the processing

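No paired analysis was possible because each stage has 1 library. Of the recomputed log2 ratios of shares, 42 kept their direction and their side of the size rule. Their sizes could still differ. For MN1 to MN3 at 36 over 24 hpf the ratio was 0.14 in matched cells, in place of 0.97, neither called. The ratios outside these 42 are given here. With cells matched between libraries on UMIs, 48 over 24 hpf came to 0.80 for MN1 to MN3 and 2.09 for MN3, and neither was called. MN3 was also no longer called at 36 over 24 hpf (0.32, in place of 2.54) and 48 over 36 hpf (1.77, in place of 1.03). MN2 in matched cells was at -0.29, -0.29 and 0 for 36 over 24, 48 over 24 and 48 over 36 hpf, from 38, 31 and 31 cells at 24, 36 and 48 hpf. Among cells with at least 2000 UMIs, MN1 to MN3 at 36 over 24 hpf (1.06) and MN2 at 36 over 24 (1.07) and 48 over 24 hpf (1.06) became calls. Among cells with at most 3% mitochondrial reads so did the same 3 ratios (1.29, 1.55 and 1.50), and MN3 at 48 over 36 hpf was lost (0.97). With only the 24 hpf MN1 to MN3 cells above 3% left out, an alternative chosen after seeing the data, they were 1.36, 1.65 and 1.63. Leaving such cells out at 24 hpf alone could only raise these ratios, so nothing is read from them. With Pre-MN and MN1 to MN5 as the denominator, the ratios at 36 over 24, 48 over 24 and 48 over 36 hpf were -0.20, -0.60 and -0.41 for MN1 to MN3, -0.40, -0.50 and -0.099 for MN1, and 1.37, 1.57 and 0.20, none called, for MN3. For MN2 they were -0.25 at 36 over 24 and -1.10, more than 2-fold lower, at 48 over 24 hpf. At 48 over 36 hpf MN2, counted among the 42, was at -0.85, in place of -0.024. With stage-table names, which do not cover the same cells as the integrated names, MN1 at 48 over 24 hpf was 0.90 and not called. MN1 to MN3 at 36 over 24 hpf (1.30) and MN2 at 36 over 24 (5.61) and 48 over 24 hpf (5.64), both against a floor of 3 cells at 24 hpf, were called there, and MN2 at 48 over 36 hpf was 0.029. Those tables had no MN3 before 48 hpf.

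Of the recomputed make-up shares, 32 stayed inside the reported interval and 22 did not. At 24 hpf MN1 and MN2 were 53.8% and 43.8% with at most 3% mitochondrial reads, 27.6% and 65.5% in matched cells, 100% and 0% (MN3 0%) by the stage tables, and 30.3% and 41.5% of MN1 to MN5. At 36 hpf MN1 was 43.8% in matched cells, 51.8% by the stage tables (MN3 0%) and 22.9% of MN1 to MN5, with MN2 34.9% and MN3 7.26%. At 48 hpf MN1 was 52.5% and MN2 30.7% in matched cells, MN1 55.5% and MN3 8.32% by the stage tables, and MN1 19.6%, MN2 17.7% and MN3 7.63% of MN1 to MN5. The share called S or G2M was 0% at 24 and 48 hpf in matched cells, at 36 hpf without the deepest 5% and at 48 hpf with a score above 0.1, and 15.9% at 48 hpf by the stage tables. By the scores of the stage tables MN1 minus MN2 and MN1 minus MN3 in the G2M score at 48 hpf were -0.011 and -0.016, and MN2 minus MN3 in the S score at 36 hpf was 0.0036. The causes were not tested. MN3 values at 24 hpf rest on 4 cells.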
